A study of Mus musculus with 6 samples.

Results

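The genes described here are 10 members of the Notch pathway: the receptors Notch1, Notch2 and Notch3, the ligands Dll1, Jag1 and Jag2, the nuclear effector Rbpj, and Hes1, Hes6 and Heyl of the HES and HEY family of repressors. They were taken by name, in a choice made with earlier results of these data known, and every probe whose transcript accession belongs to 1 of them was kept. This gave 13 probes of the 39429 on the array, and 10 genes of the 20659 that could be named. Notch1, Notch2 and Rbpj had 2 probes each and the other 7 genes had 1.

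The study measured total RNA of C2C12 cells, muscle precursors of the mouse kept as a cell line, which stop dividing and join into multinucleate myotubes once differentiation is induced, on 1-colour Agilent arrays. A group of 3 samples, labelled si-lncMGPF, was transfected with small interfering RNA against the long noncoding RNA lncMGPF, and the other 3 samples are labelled si-NC. Both groups are of the same cell line and were differentiated for 2 days, and the comparison addresses the effect of the lncMGPF knockdown at that time. lncMGPF was matched to no probe by name, so the depth of the knockdown was not checked here. The labels do not say whether the 3 samples of a group came from separate cultures, and the p-values reflect only how much these 6 samples vary, part of which could be technical.

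Notch receptors are cut after a ligand on a neighbouring cell pulls on them, and the freed intracellular part enters the nucleus, where it joins RBPJ and Mastermind coactivators to turn on targets such as the HES and HEY repressors. In muscle, active Notch signalling holds satellite cells and myoblasts back from differentiation, and Dll1 and Jag ligands are made by the muscle cells themselves. Hes6 is unlike its relatives in that it opposes HES1 and favours differentiation.

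The arrays lay on 2 slides, according to their scan identifiers. All 3 si-NC arrays lay on slide 1 together with si-lncMGPF replicate 1, and slide 2 held si-lncMGPF replicates 2 and 3. Slide 2 had a higher mean net signal at negative control spots (37.3 and 42.5, against 20.1 to 21.8) and a smaller share of probes well above background (57.3% and 56.9%, against 64.1% to 65.3%). The differences below are therefore given over all 6 arrays, for the slide 1 array alone and for the slide 2 arrays, the last 2 against the same 3 si-NC arrays. For the slide 2 arrays the knockdown and the slide cannot be told apart, and the slide 1 value rests on 1 si-lncMGPF array. Of the markers of differentiating myoblasts, 11 of 11 were well above background on all arrays. Their summed level was 151.0 to 157.0 times the 75th percentile in si-NC and 136.0 to 153.0 times in si-lncMGPF. Gene by gene, 7 of the 11 were higher and 4 lower in si-lncMGPF, and 0 had an adjusted p below 0.05 in limma. Of other cells that make Notch ligands or receptors, 2 of 6 endothelial markers were above background on all arrays (Pecam1 and Kdr), 4 were above it on none (Cdh5, Tek, Tie1 and Emcn), and the summed level was 1.26 to 1.66 in si-NC and 1.5 to 1.63 in si-lncMGPF. The summed level of the pericyte and smooth muscle list, in which Cspg4 alone of 5 genes was above background on all arrays and Rgs5, Myh11, Kcnj8 and Abcc9 on none, was 0.826 to 0.837 in si-NC and 0.674 to 0.748 in si-lncMGPF, and its part in the results was not tested. Of these 5 genes, 3 were higher and 2 lower in si-lncMGPF, the dim ones included. Of the adipocyte and epithelial markers, 0 of 3 and 0 of 4 were above background on all arrays. In RNA from whole cultures, fewer cells that express a gene and less RNA per cell cannot be told apart.

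The promoters of these genes were read from RefSeq (build GRCm38.p6), where 8 of the 10 have an entry, with 11 windows in all. Each window spans 300 bases, 250 of them before the transcription start. Both strands were searched for TGGGAA, the core that RBPJ reads, for its longer form GTGGGAA, which contains the core, and for the E box CACGTG and the N box CACNAG, which HES and HEY repressors read. Rbpj was the 1 gene of the 8 whose window held the RBPJ core, in 2 of its windows, which overlap and share a match; 25.6% of the 32851 windows in the table hold it. GTGGGAA and CACGTG were in 0 of the 11 windows, against 6.38% and 7.15% of all windows. CACNAG was in 5 of the 11 (Notch1, Notch2, Notch3, Dll1 and Hes6), against 42.5% of all windows.

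Printed here are the 250 bases before the start of Notch1, which had the largest difference among the 10 genes, of Rbpj, which held the RBPJ core, and of Hes6, which was lower on every si-lncMGPF array. Each is written 5′ to 3′ on the strand of the gene, and capitals mark the matches. Notch1 lies at chr2:26503823-26504072 on the minus strand, with CACAAG, an N box, from 108 bases before the start. Rbpj lies at chr5:53590096-53590345 on the plus strand, with the core from 149 bases before the start and, on the other strand, from 65 bases before it. Hes6 lies at chr1:91413223-91413472 on the minus strand, with CACCAG, an N box, from 237 bases before the start. Hes6 has a second start, and the 250 bases before it (chr1:91414039-91414288), not printed, held 0 matches. A match is a run of letters in this window and was not tested as a binding site.
Notch1: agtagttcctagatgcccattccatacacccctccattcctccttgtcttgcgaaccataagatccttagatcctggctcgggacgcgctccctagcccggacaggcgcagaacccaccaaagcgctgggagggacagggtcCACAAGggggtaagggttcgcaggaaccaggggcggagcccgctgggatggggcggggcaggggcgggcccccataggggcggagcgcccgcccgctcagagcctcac
Rbpj: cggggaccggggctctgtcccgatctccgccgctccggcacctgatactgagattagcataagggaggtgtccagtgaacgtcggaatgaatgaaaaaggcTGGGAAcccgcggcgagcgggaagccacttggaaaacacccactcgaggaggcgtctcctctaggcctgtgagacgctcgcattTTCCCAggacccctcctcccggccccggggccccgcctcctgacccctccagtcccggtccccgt
Hes6: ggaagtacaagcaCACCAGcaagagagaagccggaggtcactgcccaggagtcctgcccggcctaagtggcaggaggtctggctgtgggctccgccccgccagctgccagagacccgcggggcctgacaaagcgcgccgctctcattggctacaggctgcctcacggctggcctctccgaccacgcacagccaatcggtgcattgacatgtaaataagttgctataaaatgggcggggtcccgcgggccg

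Levels below are log2 of the processed signal minus log2 of the array's 75th percentile, so 0 is the 75th percentile, and 1 unit is a doubling. A probe's level depends on its own sequence, so levels were compared between arrays and not between probes. All 13 probes were well above background on all 6 arrays and were tested. With limma, 0 of the 13 had an adjusted p below 0.05, against 26 of 24657 tested probes (0.105%). At an unadjusted p below 0.05 there were 3, those of Notch1, Hes1 and Hes6, against 3904 of all tested probes (15.8%). The groups did not overlap for 5 probes that were lower in si-lncMGPF (Notch1, Jag1, Hes1, Hes6 and Rbpj) and for 1 that was higher (Jag2), where 13.3% and 9.63% of all tested probes were lower and higher without overlap. The median difference of the 13 probes was 0.05, against 0.012 over all tested probes, and the median absolute difference was 0.16, against 0.15. The shares of members lower without overlap and at an unadjusted p below 0.05 were thus above those of all tested probes, the second through 3 probes. The count at an adjusted p below 0.05, the share higher without overlap and both medians were near those of all tested probes. The levels of all 13 probes on each array are plotted next.

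**Figure D1:**
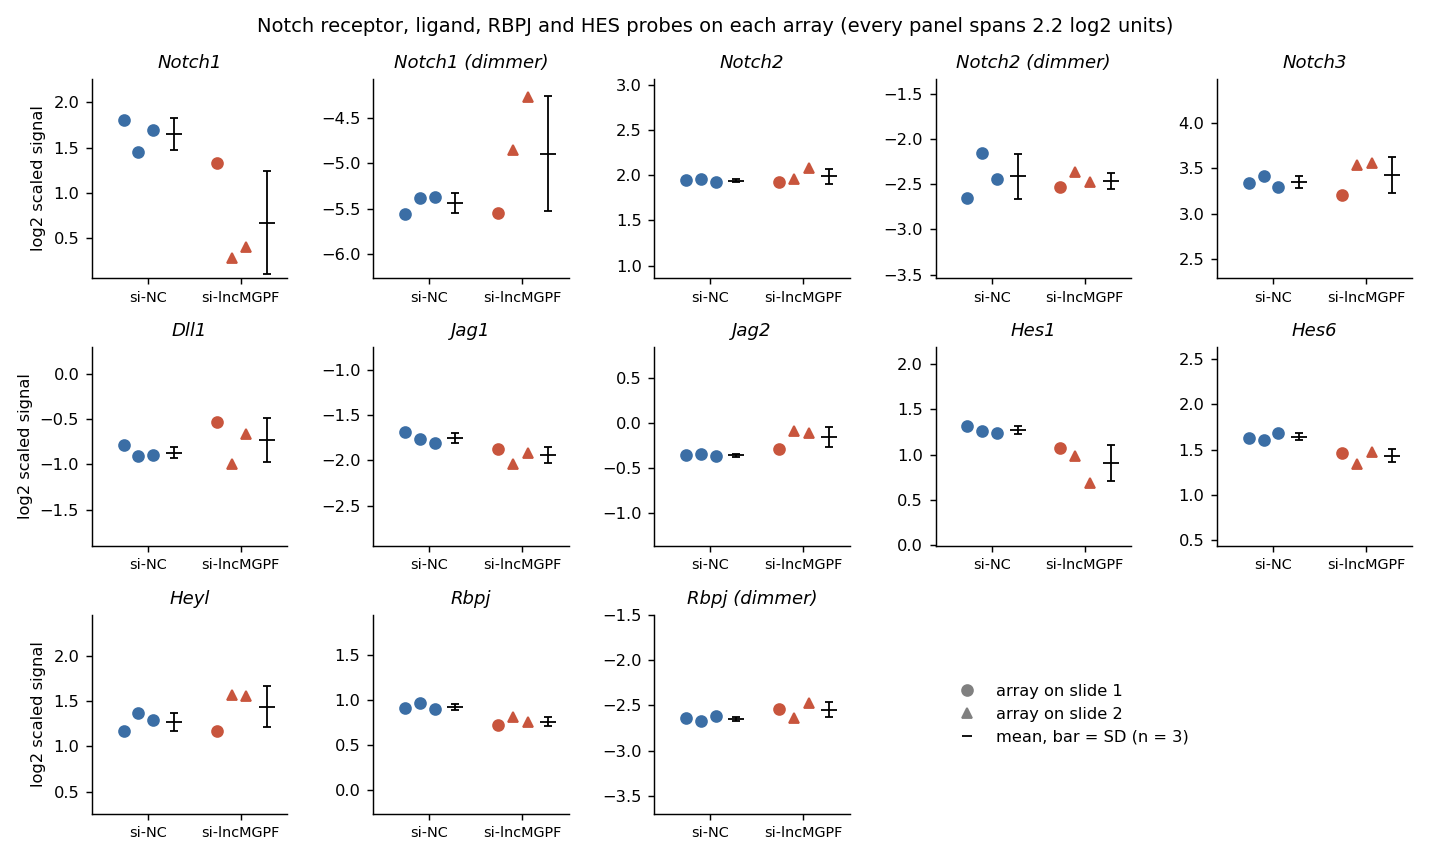
Level of each of the 13 probes on every array, as log2 signal scaled to the array's 75th percentile (vertical axis), for si-NC (blue) and si-lncMGPF (red); circles are slide 1, triangles slide 2, and the bars give mean and SD (n = 3). The brighter Notch1 probe lies between 1.45 and 1.81 in si-NC, at 1.33 on the slide 1 array of si-lncMGPF and at 0.28 and 0.40 on slide 2, while in 11 panels, all but those of Notch1, the group means lie closer together.

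Notch1, a receptor through which muscle progenitors are held back from differentiation, had the largest difference of the 10 genes. Its brighter probe read 1.81, 1.45 and 1.69 on the si-NC arrays and 1.33, 0.28 and 0.40 on si-lncMGPF replicates 1, 2 and 3. All 3 si-lncMGPF arrays were below every si-NC array, replicate 1 just below the lowest of them and replicates 2 and 3 far below. The mean was 1.65 ± 0.18 (SD, n = 3) in si-NC and 0.67 ± 0.57 (SD, n = 3) in si-lncMGPF, a difference of -0.98 (SE 0.28, 95% interval -1.65 to -0.31), or 1.97-fold lower. The adjusted p of limma was 0.228, and the unadjusted p 0.0107. The difference was -0.32 on slide 1 and -1.31 on slide 2. With slide as a block, which estimates the slide 1 value, the adjusted p was 0.275. Without si-lncMGPF replicate 1, when the groups lie on different slides, the difference of -1.31 had an adjusted p of 0.00478. That fit called 4117 of the 24657 tested probes.

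The other Notch1 probe was dim, and it did not share that direction. It read -5.56, -5.38 and -5.37 in si-NC and -5.55, -4.85 and -4.26 in si-lncMGPF. Before scaling, its signal was 16.5 to 19.7 in si-NC and 19.7, 20.1 and 25.6 in si-lncMGPF, close to the lowest signal that counts as well above background on each array (11.4 to 16.3 on slide 1, 18.4 and 19.4 on slide 2). The groups overlapped, and the 2 slide 2 arrays were the highest of the 6. The difference was 0.55 (SE 0.30, 95% interval -0.17 to 1.27, adjusted p = 0.404, limma), with -0.11 on slide 1 and 0.88 on slide 2. Without si-lncMGPF replicate 1 it had an adjusted p of 0.0355, so on the slide 2 arrays the 2 probes of Notch1 passed the threshold in opposite directions.

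Over the 6 arrays, the 3 of 14237 genes whose log2 signal was most like that of Notch1 were Yipf7 (Pearson r = 0.9996), Iqck (0.9972) and Cmya5 (0.9962), the last encoding a protein of striated muscle. These 6 points share the split between the slides. Yipf7 had a difference of -0.59, with -0.21 on slide 1 and -0.79 on slide 2. Iqck had -1.11, with -0.47 and -1.43, and Cmya5 had -1.33, with -0.37 and -1.81. These values describe genes picked for their likeness to Notch1 on the same arrays and add nothing about Notch1.

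Notch2 and Notch3, receptors that muscle progenitors also make, had small differences. The brighter Notch2 probe read 1.95, 1.96 and 1.92 in si-NC and 1.92, 1.96 and 2.08 in si-lncMGPF. The groups overlapped, and the difference was 0.05 (SE 0.09, 95% interval -0.16 to 0.25, adjusted p = 0.796, limma), with -0.02 on slide 1 and 0.08 on slide 2. The other Notch2 probe read -2.65, -2.15 and -2.44 in si-NC and -2.53, -2.36 and -2.48 in si-lncMGPF, and all si-lncMGPF arrays lay inside the si-NC range. Its difference was -0.05 (95% interval -0.39 to 0.29, adjusted p = 0.886), with -0.12 on slide 1 and -0.01 on slide 2, and it was the 1 member probe of 13 with the larger SD in si-NC (0.25, against 0.088). For 12 of the 13 member probes the SD was larger in si-lncMGPF, as for 83.9% of all tested probes.

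Notch3 read 3.34, 3.42 and 3.29 in si-NC and 3.21, 3.54 and 3.56 in si-lncMGPF. Replicate 1 was below the si-NC range and the slide 2 arrays were above it. The difference was 0.09 (SE 0.12, 95% interval -0.20 to 0.37, adjusted p = 0.742, limma), with -0.14 on slide 1 and 0.20 on slide 2.

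Among the ligands, Dll1, whose protein is the main Delta-type activator of Notch in developing muscle, was measured with 10 spots on each array. It averaged -0.79, -0.91 and -0.89 in si-NC and -0.53, -1.0 and -0.66 in si-lncMGPF. The SD of the 10 spots of an array was 0.058 to 0.099, less than the distance between si-lncMGPF replicate 1 and replicate 2. The lowest spot of replicate 1 (-0.67) was above the highest spot of replicate 2 (-0.86). The spots of an array share its labelling and hybridization, so their spread leaves out what varies between arrays. Replicates 1 and 3 were above the si-NC range and replicate 2 below it, although replicates 2 and 3 share a slide. The difference was 0.14 (SE 0.14, 95% interval -0.19 to 0.46, adjusted p = 0.634, limma), with 0.34 on slide 1 and 0.03 on slide 2.

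**Figure D2:**
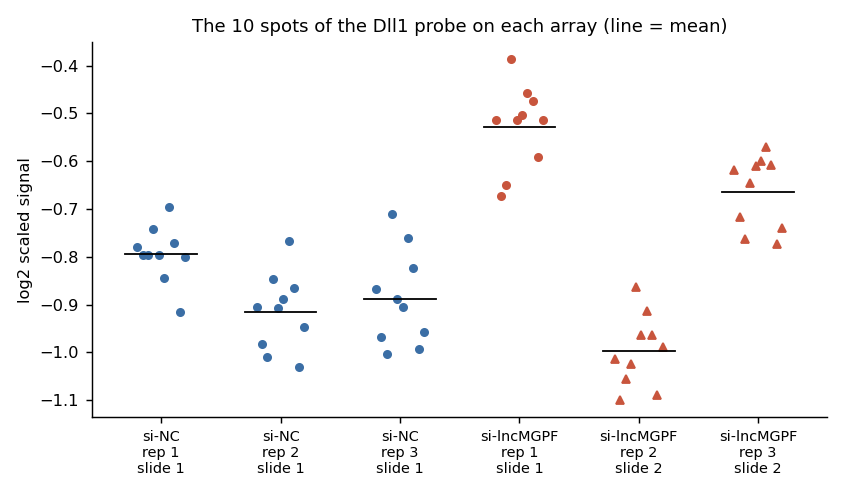
The 10 spots of the Dll1 probe on each array (points) and their mean (line), as log2 scaled signal; circles are slide 1 and triangles slide 2. The spots of si-lncMGPF replicate 1 lie between -0.67 and -0.39, and those of replicate 2 between -1.10 and -0.86.

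Jag1 and Jag2 encode the Serrate-type ligands, and their probes differed in opposite directions. Jag1 read -1.69, -1.76 and -1.81 in si-NC and -1.87, -2.04 and -1.92 in si-lncMGPF, without overlap. The difference was -0.19 (SE 0.09, 95% interval -0.41 to 0.03, adjusted p = 0.354, limma), with -0.12 on slide 1 and -0.23 on slide 2. Jag2 read -0.36, -0.34 and -0.37 in si-NC and -0.29, -0.09 and -0.11 in si-lncMGPF, also without overlap. Its difference was 0.20 (SE 0.09, 95% interval -0.02 to 0.42, adjusted p = 0.352), with 0.07 on slide 1 and 0.26 on slide 2. Neither passed the threshold. Without si-lncMGPF replicate 1, the 0.26 of Jag2 had an adjusted p of 0.0471. In that fit the groups lie on different slides, and 4117 of the 24657 tested probes passed.

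Rbpj, the DNA-binding partner of every cleaved Notch receptor, had a brighter probe at 0.91, 0.96 and 0.90 in si-NC and 0.72, 0.81 and 0.76 in si-lncMGPF. The groups did not overlap, and the spread within each was small (SD 0.03 and 0.046). The difference was -0.16 (SE 0.08, 95% interval -0.35 to 0.04, adjusted p = 0.381, limma), and it was similar on both slides, at -0.20 and -0.14. The dimmer Rbpj probe read -2.64, -2.67 and -2.62 in si-NC and -2.54, -2.64 and -2.47 in si-lncMGPF. Its difference was 0.10 (SE 0.09, 95% interval -0.11 to 0.30, adjusted p = 0.594), with 0.11 and 0.09. The 2 probes of Rbpj therefore differed in sign on both slides. Over all 6 arrays, the 2 probes of Notch1 and those of Notch2 also had opposite signs, as in all 3 members with 2 probes. For Notch2 the differences were 0.05 and -0.05, so the sign says little. Of the probes of these 3 genes, all but the brighter Notch1 probe had a 95% interval reaching from below to above no difference. The share of other genes with probes of opposite sign is not given here. With the slide 1 array alone, Rbpj was the 1 member of the 3 whose probes had opposite signs.

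Hes1, the classic target and repressor downstream of Notch, read 1.32, 1.26 and 1.24 in si-NC and 1.07, 0.98 and 0.68 in si-lncMGPF. Every si-lncMGPF array was below every si-NC array. The mean was 1.27 ± 0.045 (SD, n = 3) in si-NC and 0.91 ± 0.20 (SD, n = 3) in si-lncMGPF, a difference of -0.36 (SE 0.12, 95% interval -0.65 to -0.07), or 1.28-fold lower. The adjusted p of limma was 0.257 and the unadjusted p 0.0214. The difference was -0.20 on slide 1 and -0.44 on slide 2. Without si-lncMGPF replicate 1, when the groups lie on different slides, the adjusted p of Hes1 was 0.0466, and 4117 of the 24657 tested probes passed.

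Hes6 read 1.63, 1.61 and 1.68 in si-NC and 1.46, 1.34 and 1.47 in si-lncMGPF, without overlap. The difference was -0.21 (SE 0.09, 95% interval -0.42 to -0.0092), with an unadjusted p of 0.0428 and an adjusted p of 0.299 in limma. It was -0.18 on slide 1 and -0.23 on slide 2, the smallest gap between the slides among the 3 probes at an unadjusted p below 0.05. Hes1 and Hes6, which have opposing roles in differentiation, were thus both lower on every si-lncMGPF array, and neither passed the threshold.

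Heyl, a HEY-type target of Notch, read 1.17, 1.37 and 1.29 in si-NC and 1.17, 1.57 and 1.56 in si-lncMGPF. The groups overlapped. The difference was 0.16 (SE 0.14, 95% interval -0.16 to 0.48, adjusted p = 0.568, limma), with -0.10 on slide 1 and 0.29 on slide 2.

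**Figure D3:**
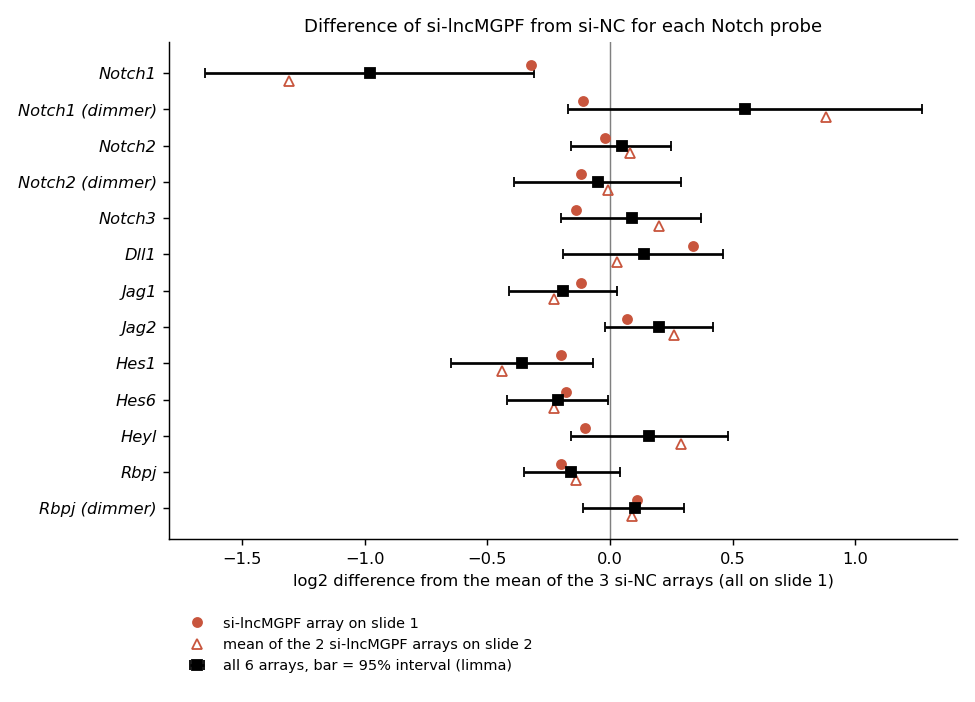
Log2 difference of si-lncMGPF from the mean of the 3 si-NC arrays for each probe: black squares over all 6 arrays with the 95% interval of limma, filled circles the slide 1 array, open triangles the mean of the 2 slide 2 arrays. Rbpj and Hes6 have nearly the same value on both slides, while the brighter Notch1 probe is at -0.32 on slide 1 and -1.31 on slide 2.

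On slide 1 alone, the si-lncMGPF array was below all 3 si-NC arrays for 8 of the 13 member probes and above them for 3, where 43.2% and 32.6% of all tested probes were below and above. The 95% interval over all 6 arrays lay inside a 1.5-fold change in either direction for 10 of the 13 probes and inside a 2-fold change for 11. The 2 probes of Notch1 were the ones whose interval reached past 2-fold. The general shift of bright probes differed between the slides: when tested probes were cut into 5 equal bins of mean signal, the median difference of the brightest bin was -0.11 on slide 1 and 0.13 on slide 2, and in the next bin -0.11 and 0.06. The brighter probes of Notch2 and Notch3 fall in the brightest bin, and their slide values (-0.02 and 0.08, and -0.14 and 0.20) lay within 0.1 of its medians. Heyl, in the next bin, had -0.10 and 0.29. The other member probes of that bin were lower on both slides. They were the brighter probes of Notch1 (-0.32 and -1.31) and Rbpj (-0.20 and -0.14), and those of Hes1 (-0.20 and -0.44) and Hes6 (-0.18 and -0.23).

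The rest of the pathway was described with a list of 71 genes grouped by role, 61 of them not among the 10. A probe was found for 68, and 62 genes were tested with the probe of highest mean signal, 52 of them not members. Of the 62, 0 passed an adjusted p below 0.05 in either direction, against 21 of 14264 genes (0.147%). At an unadjusted p below 0.05 there were 12, with 4 higher and 8 lower, against 14.2% of all genes. The 8 include Hes5 and Lfng, which met the filter through si-NC alone, the group where they read higher. Their place in this count therefore rests on the filter. The 4 include Notch4, which also met it through si-NC alone. The median difference of the list was -0.02, against 0.020 over all tested genes. It was -0.17 on slide 1 (all genes -0.073) and 0.05 on slide 2 (all genes 0.057).

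Fbxw7, the substrate receptor of a ubiquitin ligase that sends the cleaved Notch intracellular part for degradation, had the smallest adjusted p of the list. It read 0.96, 0.94 and 0.87 in si-NC and 0.32, 0.38 and 0.21 in si-lncMGPF, without overlap and with little spread in either group. The difference was -0.62 (SE 0.09, 95% interval -0.83 to -0.40, adjusted p = 0.117, limma), with -0.60 on slide 1 and -0.62 on slide 2. A second probe of Fbxw7 had -0.31 (adjusted p = 0.229), with -0.35 and -0.29, so both probes were lower on both slides. Without si-lncMGPF replicate 1, the brighter probe had an adjusted p of 0.0119. In that fit the groups lie on different slides, and 4117 of the 24657 tested probes passed.

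Rbpjl, the RBPJ-like factor best known from pancreas, was dim and read -4.86, -4.47 and -4.53 in si-NC and -4.14, -4.13 and -4.17 in si-lncMGPF. Its difference was 0.47 (SE 0.12, adjusted p = 0.214, limma), with 0.48 on slide 1 and 0.47 on slide 2. Before scaling, the Rbpjl signal was 32.1, 31 and 32.7 in si-NC and 52.4, 33 and 27.3 in si-lncMGPF. The slide 2 value therefore rests on the scaling of a dim signal. On that slide the lowest signal well above background was 18.4 and 19.4. Among the same role, which is that of nuclear effector and coactivators, differences ran from -0.44 to 0.47 over 10 genes, and the acetyltransferase Kat2a had -0.03, with -0.25 on slide 1 and 0.08 on slide 2. A dimmer Kat2a probe had -0.20, with -0.04 and -0.28. Corepressors ran from -0.24 to 0.30 over the 9 genes above background on all arrays. Among them the deacetylase Hdac2 had 0.30, which was 0.94 on slide 1 and -0.02 on slide 2 (adjusted p = 0.666). Among the enzymes that cut the receptor, 8 genes ran from -0.26 to 0.12, and Furin, the convertase of the Notch precursor, stood at the low end at -0.26 (adjusted p = 0.258), with -0.33 and -0.23.

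None of the genes named for the other roles passed the threshold, and several had unlike values on the 2 slides. Of these, Poglut1, which adds glucose to the repeats of the receptor, had the largest slide 1 value. Its difference was 0.22 over all 6 arrays, with 0.60 on slide 1 and 0.03 on slide 2, and leaving out 1 array in turn gave 0.03 (without si-lncMGPF replicate 1) to 0.45 (without si-lncMGPF replicate 2). Rfng, a Fringe glycosyltransferase, had -0.04, with -0.26 on slide 1 and 0.07 on slide 2. Dtx2, of the Deltex ubiquitin ligases, had -0.03, with -0.30 and 0.10. Of the remaining HES and HEY genes, Hey1 had 0.02, with -0.12 on slide 1 and 0.09 on slide 2, and Hes2 had 0.17, with 0.01 and 0.26. The ligand Dll3 had 0.07, with 0.29 on slide 1 and -0.04 on slide 2. A dimmer Dll3 probe, not above background on all arrays, had -0.28, with 0.22 and -0.53. In ligand endocytosis, Neurl1b had 0.07, with -0.02 and 0.12, and Mib1 had -0.10, with 0.02 and -0.17. A dimmer Neurl1b probe had -0.18, with -0.28 and -0.13. Of the 62 tested genes, 57 were well above background on all arrays. The 5 others were Notch4, Dll4, Tle4, Lfng and Hes5, each above it on all 3 si-NC arrays and on 1, 1, 2, 2 and 0 of the si-lncMGPF arrays. No fold is given for Hes5, whose bound was under 1. Dlk1, Dner, Hes3, Hey2, Nrarp and Dtx1 had a probe that was not tested because it was not well above background on every array of a group.

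**Figure D4:**
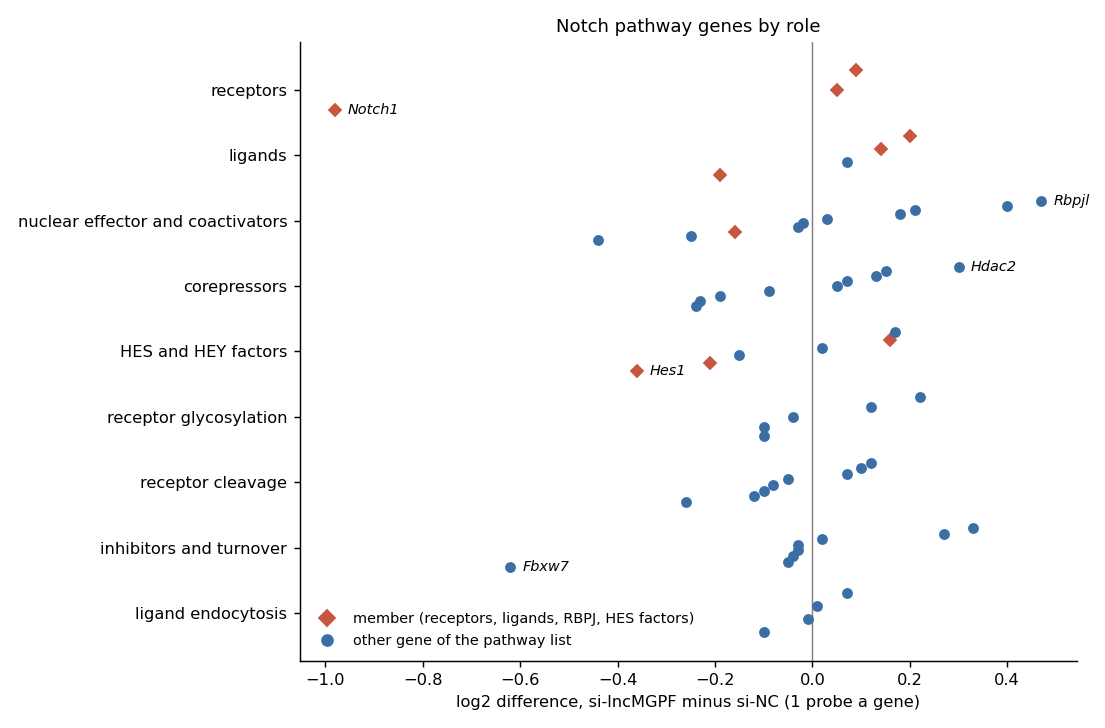
Log2 difference, si-lncMGPF minus si-NC (horizontal axis), for the 57 genes of the pathway list that were well above background on all 6 arrays, 1 probe a gene and 1 row of points for each role; red diamonds are the members and blue circles the other genes. Notch1 at -0.98 and Fbxw7 at -0.62 lie apart from the rest, which run from -0.44 to 0.47.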

How the data were processed

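Per the file headers, the authors scanned 1-colour arrays with Agilent Feature Extraction 11.0.1.1, whose deposited processed signal is a background-subtracted intensity for each spot. The deposited series table holds the same intensity at 44397 of 44397 spots. Each array was scaled here by its 75th percentile (492.1 to 930.7), log2 was taken, outlier-flagged spots (117 to 134 an array) were left out, and spots of a probe were averaged. No spot was saturated. With 3 arrays a group, the number of arrays limits the precision.

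Probes were named by their transcript accession through a RefSeq table (27234 of 39429 named). A probe was tested with limma 3.58.1 (R 4.3.3, lmFit and eBayes, two-sided) if well above background on every array of a group, which left 24657, with Benjamini-Hochberg adjustment over all of them and a threshold of 0.05. Fits were also run on simulated data with independent noise on each array and no slide effect. That simulation does not cover the split between the slides. The probe of highest mean signal stands for a gene. All members were named. Of the other list genes, those past the threshold were named, and for each role the gene with the brightest probe and the one with the largest difference among those above background on all arrays; some items of the lists are not reported here. The members and lists were chosen with earlier results of these data known. Alternatives changed the scaling, the background correction, the filter, the variance prior, the array weights, the slide, the replicate number, the source of values, the choice of probe and the arrays used.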

Additional observations from a re-analysis of the deposited data

How the results depend on the processing

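For the 10 genes, 147 of 166 values under 13 alternatives, those that leave out an array aside, kept their direction and their side of the threshold, and 12 had the other sign. The filters, the variance prior, the series table values and the replicate block left each difference unchanged, so they could not change its direction. All 12 were small: with slide as a block or slide 1 alone, the dimmer Notch1 probe (-0.11), Notch2 (-0.02), Notch3 (-0.14) and Heyl (-0.10); with slide as a random block, Notch3 (-0.08) and Heyl (-0.03); with normexp, Notch2 (-0.01) and its other probe (0.15). Of the other genes, Hey1 had -0.12 and Neurl1b -0.02 (Mib1 0.02) within slide 1, Hey1 -0.07 with the random block, Hey1 -0.02 and Mib1 0.01 with normexp, Dll3 -0.18, Hes2 -0.22 and Rfng 0.0023 with array weights, and Dll3 -0.11 and Neurl1b -0.05 with the mean of a gene's probes. Gene-by-gene estimates of array weights were chosen after seeing the data, because the planned REML weights did not converge. They gave si-lncMGPF replicate 1 a weight of 0.125 and si-NC replicate 3 one of 9.39. That fit called 7 member probes (both of Notch1, Notch3, Jag2, Hes1, Hes6 and Heyl), 23 genes of the list and 10147 probes in all. All tested probes called numbered 6 with quantile scaling, 8 with normexp (run on the median spot signal), 0 with no filter (5277 at an unadjusted p below 0.05), 10 with slide as a block, 1 on slide 1 alone and 21 to 30 with the remaining settings that test probes. With the mean of a gene's probes, 34 genes were called. With the replicate number as a block, limma called 0 probes (4431 at an unadjusted p below 0.05) and 0 members; deviations of same-numbered arrays correlated at 0.185, 0.318 and -0.0582, so the numbers were not taken as pairs. Member probes higher without overlap were 2 with quantile scaling and 3 on slide 1 alone. Those lower were 8 on slide 1 alone, 4 with scaling to the array median, 4 with normexp and 3 with gene means. Members with probes of opposite sign were 1 within slide 1 and 2 without si-NC replicate 2. Leaving out each array in turn gave 0 to 4 member probes called, 0 to 8 genes of the list, 0 to 4117 probes in all (1877 to 8713 at an unadjusted p below 0.05) and 1 to 5 member probes higher without overlap; the high values, 4, 8, 4117 and 5, came without si-lncMGPF replicate 1. Over all tested probes, 4 were called without si-lncMGPF replicate 2 and 0 without its replicate 3 or without any 1 of the si-NC arrays. Over the same 6 fits the dimmer Notch2 probe ran from -0.17 to 0.09, Dll3 from -0.10 to 0.22, Dtx2 from -0.15 to 0.10, Hdac2 from -0.02 to 0.64, Hes2 from -0.04 to 0.33, Hey1 from -0.02 to 0.09, Kat2a from -0.14 to 0.08 and Rfng from -0.13 to 0.07.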
